A study of Mus musculus with 10 samples.

Results

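The core trio of pluripotency genes, Sox2, Pou5f1 and Nanog, was followed through the conversion of mouse embryonic fibroblasts. The members were taken by gene symbol through GENCODE release M21, and all 3 were among the 54752 genes in the files. Pou5f1 encodes the POU-domain protein Oct4, Sox2 an HMG-box protein of the SOX family, and Nanog a homeodomain protein. In mouse embryonic stem cells Oct4 and Sox2 bind side by side on composite DNA sites, often with Nanog nearby, and the 3 proteins bind regulatory DNA of their own genes. Fibroblasts keep the 3 genes silent, and their return is a standard mark of reprogramming. Sox2 is also a gene of neural progenitors, which Pou5f1 and Nanog are not.

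The cells were primary fibroblasts at passage 2 from E13.5 embryos, whose fathers (CBA/CaJ × C57BL/6J) carried an Oct4-GFP transgene and whose mothers were 129S4/SvJaeJ. All groups received Jdp2, Sall4, Esrrb and Glis1 by retrovirus for 48 h and were then kept in iCD3 medium for 0, 24, 72, 120 or 168 h, here D0, D1, D3, D5 and D7. D0 cells had therefore already carried the 4 factors through the infection. Each day had 2 libraries, replicates 1 and 2, from 2 independent experiments per the series text, which made 10 in all. Libraries of uninfected cells and of embryonic stem cells were not analysed here. None of the delivered genes is a member of the trio, but the labels do not say which Pou5f1 segments the Oct4-GFP transgene carries, so its reads cannot be told apart from those of the native gene.

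Replicate 1 was the deeper series, with 2176457 to 4335931 estimated read counts per library, against 1329377 to 1492105 in replicate 2. Fragments averaged 135 to 158 bases in the libraries of replicate 1 and were longer in replicate 2, at 198 to 203 bases. The labels list several library kits together and do not tie a kit to a library, so experiment, depth and fragment length cannot be told apart between the replicate series. The summed level of 12 fibroblast markers lay at 5218 to 6287 TPM at D0, 1296 to 2400 at D1, 827 to 1090 at D3, 645 to 1041 at D5 and 599 to 773 at D7. Vim, which encodes an intermediate filament of mesenchymal cells, had the highest TPM of that list. By edgeR's test, 6 of the 12 were lower at D1 than at D0, where 2.12% of all genes were, and 10 were lower at D7 than at D0, where 8.71% were. Vim was among the 10 and was not called without D7 replicate 1 (adjusted p = 0.0684). In bulk RNA a higher level in every cell and a larger share of expressing cells cannot be told apart, and this holds for every value below.

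The members lie on different chromosomes (GRCm38, GENCODE M21). Sox2 (ENSMUSG00000074637) is a gene with 1 annotated transcript at chr3:34650405-34652461, Pou5f1 (ENSMUSG00000024406) has 6 at chr17:35506018-35510772, and Nanog (ENSMUSG00000012396) has 3 at chr6:122707489-122714633, all on the plus strand. The stretches just before the annotated transcription starts are shown because Oct4, Sox2 and the delivered orphan nuclear receptor Esrrb are known to bind regulatory DNA of these genes in embryonic stem cells. They are RefSeq promoter sequences (GRCm38.p6, plus strand), cut where GENCODE M21 or RefSeq has its earliest start, and capitals mark the motif matches described next. The 3 stretches are chr3:34649745-34649994 for Sox2, chr17:35505782-35506017 for Pou5f1 and chr6:122707239-122707488 for Nanog.
Sox2: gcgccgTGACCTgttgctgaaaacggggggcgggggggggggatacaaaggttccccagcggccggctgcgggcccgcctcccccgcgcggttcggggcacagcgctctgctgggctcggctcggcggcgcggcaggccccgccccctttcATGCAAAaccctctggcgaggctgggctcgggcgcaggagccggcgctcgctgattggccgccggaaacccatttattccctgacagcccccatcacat
Pou5f1: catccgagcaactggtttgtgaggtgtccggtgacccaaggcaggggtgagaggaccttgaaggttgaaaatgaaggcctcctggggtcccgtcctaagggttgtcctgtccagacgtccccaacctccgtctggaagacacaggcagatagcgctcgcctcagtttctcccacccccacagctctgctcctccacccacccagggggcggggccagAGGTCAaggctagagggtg
Nanog: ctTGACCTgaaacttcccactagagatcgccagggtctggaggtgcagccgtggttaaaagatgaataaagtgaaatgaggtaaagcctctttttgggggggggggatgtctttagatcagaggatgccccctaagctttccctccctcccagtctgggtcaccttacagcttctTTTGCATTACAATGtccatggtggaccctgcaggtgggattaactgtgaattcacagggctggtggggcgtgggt

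Of the trio, Nanog alone carried a match to the OCT-SOX composite in this stretch, searched as the SOX letters CATTGT, 1 base of any kind and the octamer letters ATGCAAA, on either strand. The match read on the minus strand, at chr6:122707414-122707427, 62 bases before the start. Among 32851 RefSeq promoter windows of 250 bases before the start, 2 (0.00609%) held these letters, and both were windows of Nanog. The octamer letters alone stood in 4.12% of windows and matched Sox2 at chr3:34649896-34649902, while the SOX letters alone stood in 10.7%. The hexamer AGGTCA, the core of nuclear receptor sites, was matched in all 3 stretches and stood in 14.0% of all windows. The longer form AAGGTCA, as bound by Esrrb, stood in 4.08% of windows and was matched in none of the 3. These are letter matches in short windows, and the distal enhancers of the genes lie outside them. GC content of the stretches was 72% for Sox2, 61.9% for Pou5f1 and 52% for Nanog.

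Sox2 was called above its D0 level from D1, in both replicates, whereas Pou5f1 and Nanog were first called above theirs at D3. This contrast is one of calls, not of fitted size for Nanog. The D1 over D0 log2 fold change was 3.29 for Nanog and 3.54 for Sox2. Pou5f1 and Nanog had few reads at D0 and D1, and were higher at D1 in replicate 1 only, so an earlier rise of either was not excluded. All 3 were higher at D7 than at D0, and none was called between D7 and D5. Levels below are CPM, read counts brought to a common library total after scaling by the trimmed mean of M-values (TMM), and levels are compared between genes only in TPM, which accounts for transcript length. Tests are edgeR's quasi-likelihood F test over 12752 genes, and genes with a p under 0.05 after Benjamini-Hochberg adjustment are called. SE is that of the log2 fold change.

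Sox2 stood in replicate 1 at 6.85, 90.7, 154, 202 and 208 CPM on D0, D1, D3, D5 and D7. In replicate 2 it stood at 6.74, 68.3, 81.2, 159 and 142 CPM. The D0 libraries held 14 and 9 Sox2 reads, and every later library lay far above both. D1 averaged 79.5 ± 15.8 CPM, against 6.79 ± 0.0804 CPM at D0 (SD, n = 2 each), a log2 fold change of 3.54 (SE 0.43, adjusted p = 0.00200). Of all genes tested, 4.52% were called in that comparison. The call held without each library in turn, with adjusted p of 0.00139 to 0.0360. From pooled counts, Sox2 at D1 was 12.3 times its D0 level, with a 95% counting interval of 8.11 to 19.7. D3 averaged 117 ± 51.2 CPM, D5 180 ± 30.5 CPM and D7 175 ± 46.8 CPM.

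None of the later steps of Sox2 was called. The log2 fold change was 0.57 (SE 0.35, adjusted p = 0.775) for D3 over D1, 0.61 (SE 0.35, adjusted p = 0.544) for D5 over D3 and -0.04 (SE 0.35, adjusted p = 0.994) for D7 over D5. Over the longer intervals D5 lay above D1 by 1.18 (adjusted p = 0.0861) and D7 above D1 by 1.14 (adjusted p = 0.0615), neither of them called. Both were called when the replicate number was a block in the fit, with adjusted p of 0.00631 and 0.00458. Leaving out D3 replicate 1, D3 replicate 2, D5 replicate 1 or D5 replicate 2 also brought the D7 over D1 difference under the threshold (adjusted p = 0.0423, 0.0449, 0.0421 and 0.0382). Across the whole course D7 exceeded D0 by 4.68 (SE 0.44, adjusted p = 0.000154). In order of level the days ran D0, D1, D3, D7 and D5, and of the neighbours in that order only D1 and D0 were called different.

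Pou5f1 stood in replicate 1 at 0, 7.30, 137, 431 and 335 CPM on D0, D1, D3, D5 and D7. In replicate 2 it stood at 3.74, 1.42, 30.6, 363 and 327 CPM. The early values rest on few reads: 24 and 2 at D1, against 0 and 5 at D0. Replicate 1 went up between D0 and D1 and replicate 2 did not, and at D3 replicate 1 was far above replicate 2. By D5 and D7 the replicates lay close together, at 397 ± 48.6 CPM and 331 ± 5.96 CPM (SD, n = 2 each).

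The D1 over D0 log2 fold change of Pou5f1 was 1.68 (SE 1.22, adjusted p = 0.580) and turned to -0.12 without D1 replicate 1. Pooled over the replicates, its D1 level was 3.75 times that of D0, with a 95% counting interval of 1.42 to 12.5, on 26 reads against 5. D3 averaged 83.6 ± 75.0 CPM, against 4.36 ± 4.16 CPM at D1, a log2 fold change of 4.07 (SE 0.82, adjusted p = 0.124), where 0.0549% of all genes were called. D5 over D3 gave 2.22 (SE 0.68, adjusted p = 0.240), where 0.0706% of all genes were called. Both steps were called with the replicate number as a block, at adjusted p of 0.0138 and 0.0274. D7 over D5 gave -0.26 (SE 0.65, adjusted p = 0.962), a comparison in which edgeR called 0% of genes, with 810 genes at an unadjusted p under 0.05, 25 called by DESeq2 and 1 by limma.

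Against the early days the change of Pou5f1 was past the threshold. D3 lay above D0 by 5.75 (SE 1.01, adjusted p = 0.00442), with 12.1% of all genes called, and D5 above D0 by 7.96 (adjusted p = 0.000677), with 16.3% called. D7 lay above D0 by 7.70 (SE 1.02, adjusted p = 0.000727), with 17.9% of all genes called. D5 exceeded D1 by 6.29 (adjusted p = 0.00532, 4.39% of genes called) and D7 exceeded D1 by 6.02 (adjusted p = 0.00320, 11.5% called). D7 over D3 gave 1.95 (adjusted p = 0.113, and 0.0144 with the block), where 5.37% of genes were called. In order of level the days ran D0, D1, D3, D7 and D5, and no neighbouring pair in that order was called different in the fit without the block. From pooled counts, Pou5f1 was 72.2 times its D0 level at D3 (95% counting interval 30.7 to 223) and 225 times at D7 (96.3 to 694). These folds stand on the 5 D0 reads of replicate 2. Without D0 replicate 1 the fitted D7 over D0 value was 6.45, and without D0 replicate 2, when no D0 read was left, it was 12.74, which depends on the fit and is no bound.

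Nanog stood in replicate 1 at 0, 10.0, 53.3, 236 and 227 CPM on D0, D1, D3, D5 and D7. In replicate 2 it stood at 1.497, 0.711, 10.4, 93.6 and 159 CPM. As with Pou5f1, D1 was above D0 in replicate 1 (33 reads against 0) and not in replicate 2 (1 read against 2). Replicate 1 was above replicate 2 from D1 to D7, in relative terms by most at D1, and replicate 2 alone was higher at D7 than at D5.

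D1 over D0 gave a log2 fold change of 3.29 for Nanog (SE 1.57, adjusted p = 0.322). Pooled over the replicates, Nanog at D1 was 12.2 times its D0 level, with a lower 95% counting limit of 3.14, on 34 reads against 2. Pooling weights replicate 1, and replicate 2 did not rise. D3 averaged 31.8 ± 30.3 CPM, against 5.38 ± 6.60 CPM at D1 (SD, n = 2 each), a change of 2.39 (SE 0.87, adjusted p = 0.428). D5 averaged 165 ± 101 CPM, 2.31 above D3 (SE 0.77, adjusted p = 0.272, and 0.0152 with the replicate block). D7 averaged 193 ± 47.8 CPM, 0.22 above D5 (SE 0.72, adjusted p = 0.975). D7 lay above D0 by 8.21 (SE 1.26, adjusted p = 0.00157) and above D1 by 4.92 (adjusted p = 0.00843), and D5 lay above D0 by 7.99 (adjusted p = 0.00190). D7 over D3 gave 2.53 (adjusted p = 0.0799, and 0.00208 with the block), and it passed the threshold without D5 replicate 1 (adjusted p = 0.0428) or D5 replicate 2 (adjusted p = 0.0415).

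Some Nanog calls rested on single libraries. D3 over D0 gave 5.68 (SE 1.33, adjusted p = 0.0183) and was not called without D0 replicate 1 (4.43, adjusted p = 0.159), D0 replicate 2 (9.43, adjusted p = 0.0697) or D3 replicate 1 (4.05, adjusted p = 0.174). D5 over D1 gave 4.70 (adjusted p = 0.0184) and was not called without D1 replicate 1 (7.76, adjusted p = 0.0571), D1 replicate 2 (4.04, adjusted p = 0.0955) or D5 replicate 1 (3.84, adjusted p = 0.0538), nor when only those days were fitted (adjusted p = 0.0601). In order of level the days ran D0, D1, D3, D5 and D7, and none of the neighbouring pairs was called different in the fit without the block. The pooled counts put Nanog at D7 at 355 times its D0 level, with a 95% counting interval of 98.0 to 2931 that reflects 2 reads at D0. Without D0 replicate 2, which held both reads, the fitted D7 over D0 value was 11.96, and without D0 replicate 1 it was 6.97.

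**Figure D1:**
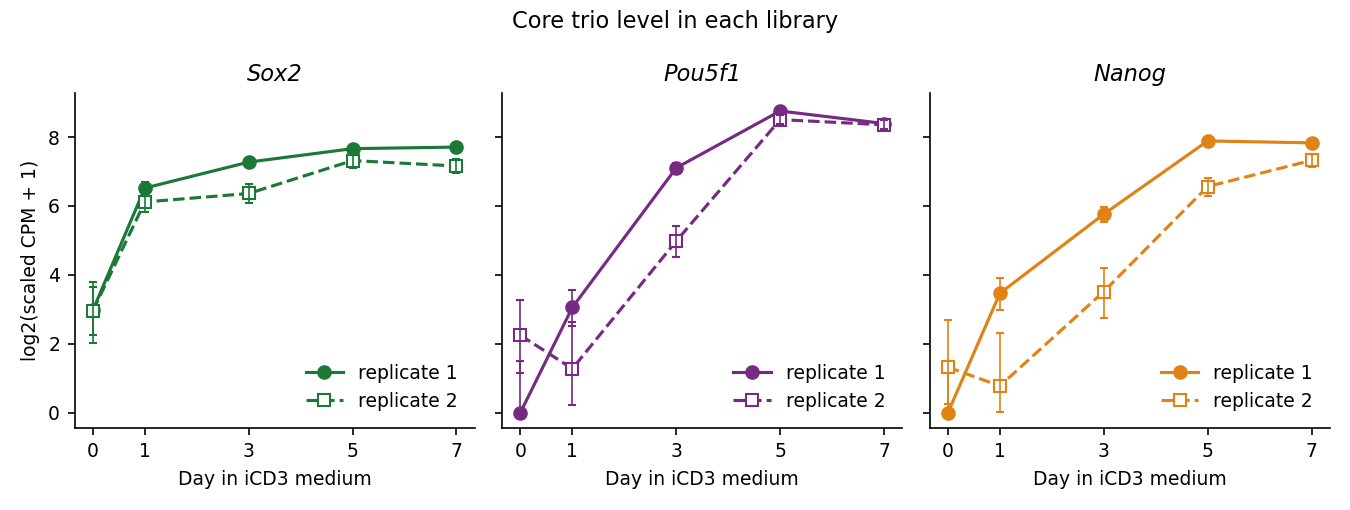
Level of Sox2, Pou5f1 and Nanog in each of the 10 libraries, as log2(scaled CPM + 1) against the day in iCD3 medium, with filled circles for replicate 1, open squares for replicate 2 and bars for the 95% counting interval. Sox2 left its D0 level by D1 in both replicates, while Pou5f1 and Nanog were above D0 at D1 in replicate 1 and not in replicate 2.

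**Figure D2:**
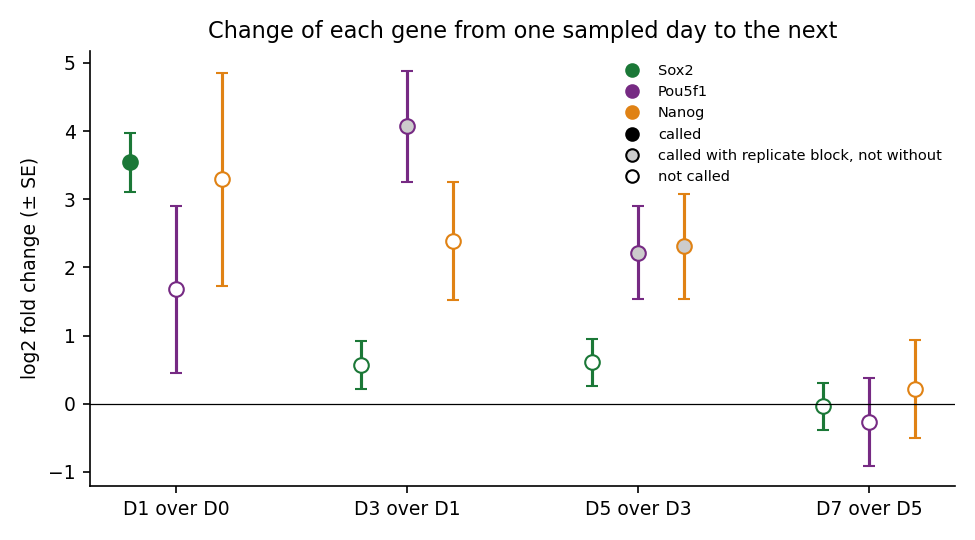
Log2 fold change (± SE) of each gene from one sampled day to the next, with the later day over the earlier. The D1 over D0 step of Sox2 (3.54) was the one called, and the grey points were called with the replicate number as a block and not in the fit without it.

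The order of onset was read in each replicate series on its own. Onset was the first sampled day on which a gene stood at 10% or more of its highest CPM in that series and above the value of 3 reads. Sox2 had its onset at D1 in both series, at 43.6% of its highest level in replicate 1 and 43.1% in replicate 2. Pou5f1 had its onset at D3 in replicate 1, at 31.7% of its highest level, and at D5 in replicate 2, where D3 stood at 8.42%. Nanog shared those days, with 22.6% at D3 in replicate 1 and 6.56% at D3 in replicate 2. By this rule Sox2 preceded both others in each series, and Pou5f1 and Nanog could not be ordered. The rule goes by each gene's own highest level and does not date the first rise. In replicate 1 Pou5f1 (24 reads against 0) and Nanog (33 reads against 0) were also above D0 at D1. They stood there at 1.69% and 4.26% of their highest levels.

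The other cut-offs tried, 5%, 25% and 50%, left Sox2 ahead. At 5% of the highest level Sox2 had its onset at D1 and the others at D3 in both series. Nanog at D1 in replicate 1 was just under that cut-off, at 4.26%. At 25% Sox2 stayed at D1, Pou5f1 was at D3 in replicate 1 and D5 in replicate 2, and Nanog was at D5 in both, so Pou5f1 preceded Nanog in replicate 1. At 50% Sox2 moved to D3 and the others to D5 in both series, and in TPM Nanog moved to D7 in replicate 2. Pou5f1 was highest at D5 in both series, with D7 at 77.6% of that level in replicate 1 and 90.1% in replicate 2. Nanog reached 58.8% of its highest level at D5 in replicate 2 and was highest at D7 there, while in replicate 1 it was highest at D5 and at 96.1% of that at D7.

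**Figure D3:**
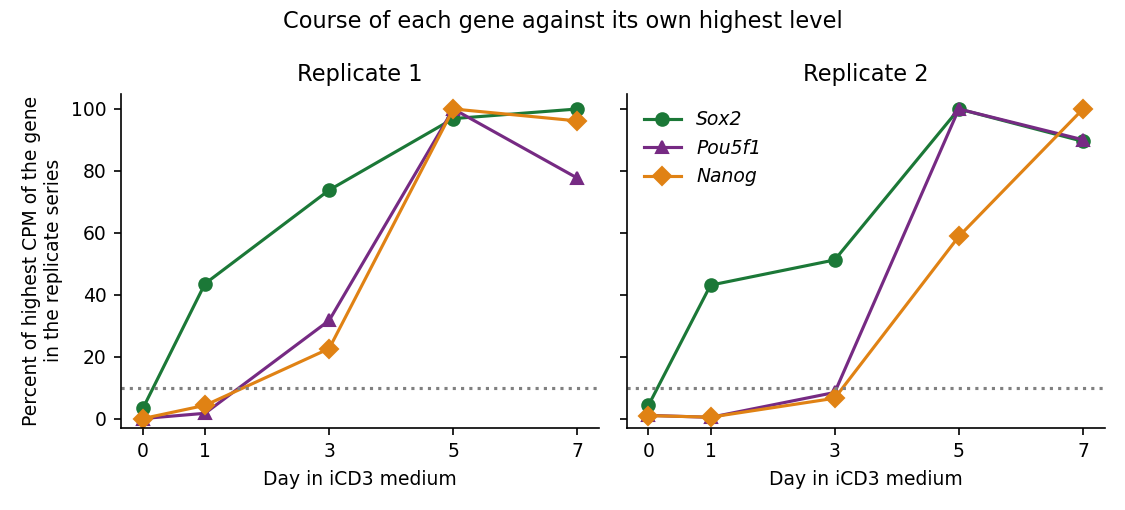
CPM of each gene as a percent of its highest value in the replicate series, against the day in iCD3 medium, for replicate 1 (left) and replicate 2 (right). The dotted line marks 10%: Sox2 passed it at D1 in both, and Pou5f1 and Nanog passed it at D3 in replicate 1 and at D5 in replicate 2.

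The make-up of the trio differed between the early and the late days. In TPM summed over the 3 genes, Sox2 made up 81.2% of the D1 total in replicate 1 and 95.8% in replicate 2. At D3 it made up 36.8% and 57.7%, at D5 18.2% and 19.0%, and at D7 22.1% and 17.5%. Pou5f1 was the most abundant of the 3 per length at D5, with 62.1% and 69.7% of the total, and at D7, with 55.7% and 64.3%. Nanog and Sox2 had like shares at D7, with 22.3% and 18.2% for Nanog. The total itself went through 82.97 and 51.7 TPM at D1, 302 and 99.1 TPM at D3, 865 and 492 TPM at D5, and 750 and 621 TPM at D7, so that replicate 1 held more on every one of these days.

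The log2 ratio of Sox2 to Pou5f1 (TPM + 1) stood in replicates 1 and 2 at 2.81 and 4.25 at D1, -0.48 and 0.72 at D3, -1.76 and -1.86 at D5, and -1.33 and -1.87 at D7. That of Sox2 to Nanog stood at 3.11 and 5.05 at D1, 1.61 and 2.76 at D3, -0.11 and 0.75 at D5, and -0.012 and -0.059 at D7. The added 1 draws the ratios of the low D1 values toward 0. Over the D5 and D7 libraries the ratio to Pou5f1 averaged -1.71 ± 0.257, against 1.83 ± 2.11 over the D1 and D3 libraries (SD, n = 4 each), a difference of -3.53. The ratio to Nanog averaged 0.14 ± 0.407 over D5 and D7 and 3.13 ± 1.43 over D1 and D3, a difference of -2.99. In both ratios the D5 and D7 libraries lay apart from those of D1 and D3, whereas for Pou5f1 over Nanog (difference 0.54) they overlapped. These means pool libraries of different days, divided where the courses above part, so they restate those courses and are given as a description.

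**Figure D4:**
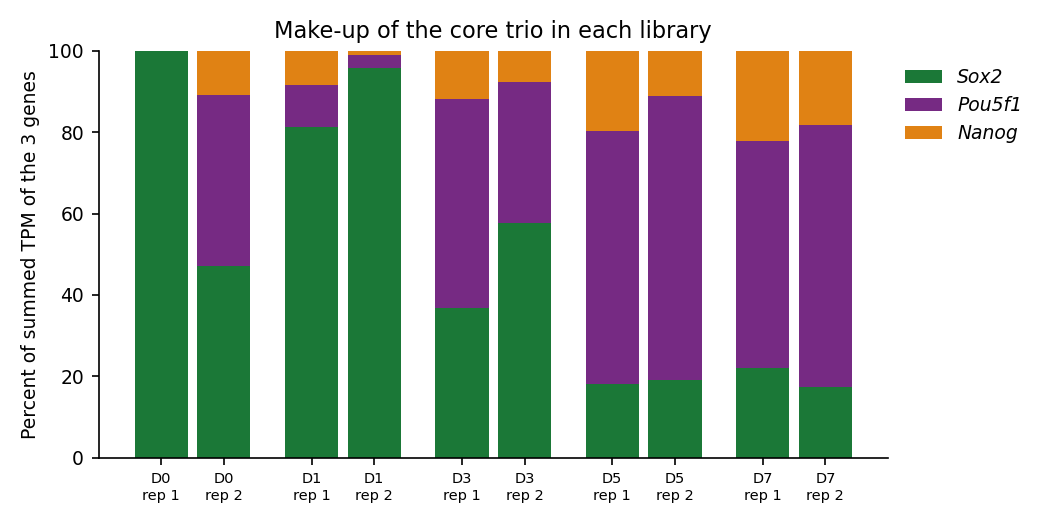
Percent of the summed TPM of Sox2, Pou5f1 and Nanog taken by each gene, as a stacked bar per library from D0 to D7. Sox2 took 81.2% and 95.8% at D1 and 22.1% and 17.5% at D7, while the D0 bars rest on 5.20 and 10.6 TPM in all.

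Overlapping and near-identical annotated genes held few reads. Sox2 lies within Sox2ot, a long noncoding gene on the same strand (chr3:34104270-34682619), which held 0 to 4 estimated reads in every library. The processed pseudogenes Nanog-ps1 and Nanog-ps2 held 0 in every library. The transcript length that RSEM assigned to Nanog was 2211 bases in replicate 1 from D1 to D7 and 1995 bases in replicate 2 from D0 to D3, so Nanog TPM, but not its CPM, carries that difference.

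Genes within 100 kb of the members were described at each locus. No other protein-coding gene lies that near to Sox2. Of 3 beside Nanog, all were called higher at D7 than at D0, where 9.15% of all genes were. Gdf3 and Dppa3 had no D0 read and passed the filter through later days alone, so they could not have been called lower. Slc2a3, which encodes the glucose transporter GLUT3, averaged 866 ± 226 CPM at D7 and 18.6 ± 3.402 CPM at D0 (SD, n = 2 each), a log2 fold change of 5.55 (SE 0.47, adjusted p = 8.74e-05). It was already higher at D1 than at D0, by 2.25 (adjusted p = 0.0133). Gdf3, a TGF-beta family ligand, averaged 16.6 ± 0.698 CPM at D7 and had no read in either D0 library, at least 18.4-fold higher against a floor of 3 reads over the D0 libraries (adjusted p = 0.00111). Dppa3, a germ cell and preimplantation gene, averaged 20.9 ± 12.9 CPM at D7, likewise with none at D0, and was at least 28.7-fold higher (adjusted p = 0.00653, and 0.0541 without D0 replicate 1).

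Of 9 protein-coding genes within 100 kb of Pou5f1, 6 were tested and 1 was called at D7 against D0, a share near the 17.9% of all genes called. That gene, H2-Q10 of the MHC class I family, had 6.96 and 5.91 CPM at D7 and no read at D0 (adjusted p = 0.0339), and lost the call without any 1 of the D0, D3 or D7 libraries (adjusted p of 0.0517 to 0.165). Tcf19, on the opposite strand 1962 bases beyond the end of Pou5f1, had 26.3 ± 1.88 CPM at D7 and 38.0 ± 2.97 CPM at D0 (log2 fold change -0.53, SE 0.35, adjusted p = 0.352). Cchcr1 had 25.7 ± 3.89 CPM at D7 and 26.2 ± 1.06 CPM at D0 (adjusted p = 0.990). H2-Q7 (1.69, adjusted p = 0.194), Cdsn (-2.16, adjusted p = 0.175) and 2300002M23Rik (no read at D0, adjusted p = 0.0807) were not called either. H2-Q6, Psors1c2 and Sfta2 were under the filter.

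The genes whose courses were most like each member's were ranked by Pearson r of log2 CPM over the 10 libraries among 12751 other genes, as a description, since these libraries share days and replicate series. For Pou5f1 they were Gbx2, a homeobox gene (r = 0.991), Nanog (0.983), Afap1l1 (0.972), Aldh9a1 (0.970) and Epop (0.969). For Nanog they were Nipsnap1 (0.991), Pou5f1 (0.983), Ttc5 (0.981), Tmem170 (0.975) and Rhpn2 (0.974). Pou5f1 and Nanog thus stood second in each other's ranking by r over all libraries. By Spearman's rho Nanog ranked 4 for Pou5f1, and Pou5f1 ranked 15 for Nanog. Within replicate 1 these ranks were 44 and 45, and within replicate 2 they were 9 and 15. For Sox2 they were Gsta4, a glutathione transferase (0.992), Ucp2, a mitochondrial carrier (0.983), Cdh1, which encodes E-cadherin (0.981), Slc35f2 (0.976) and Hap1 (0.975). Pou5f1 ranked 456 for Sox2 (r = 0.823) and Nanog 375 (r = 0.843). By rho both stood at 0.903 with Sox2. Within replicate 1 their r with Sox2 was 0.927 and 0.949, and within replicate 2 it was 0.691 and 0.703. Other named ranks moved as well, with Cdh1 at 570 for Sox2 and Afap1l1 at 414 for Pou5f1 by rho. Gsta4 went through 15.2, 101, 121, 129 and 147 CPM in replicate 1 and 18.7, 71.9, 66.3, 120 and 108 CPM in replicate 2, the D1 step of Sox2 at a level of its own.

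The pluripotency network list held 41 genes of the stem cell state other than the trio, of which 39 passed the filter. Genes silent early passed that filter only through later days. At D7, 33 were called higher than at D0 and none lower, a median log2 change of 6.54 against 0.06 over all genes, where 9.15% were called higher and 8.71% lower. With the 12 genes that had no read at D0 set to their lower bounds the median was 4.84. Those with the largest fitted changes were Tdgf1, a Nodal co-receptor, at least 173-fold higher with its 174 and 89.4 CPM at D7, Lin28a, an RNA-binding protein that blocks let-7 (at least 77.1-fold), Dnmt3l, a cofactor of DNA methylation (at least 70.5-fold), and Dppa4, a chromatin protein (at least 62.2-fold). Dppa2, likewise without a D0 read, had a bound of at least 68.5-fold. Each of the 4 was silent at D0 in both replicates and called higher without every library in turn. DESeq2 called 35 higher and limma 33, none lower by either, and 0 genes were lower at an unadjusted p under 0.05.

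At D1, when Sox2 was up, 5 of the 39 were called higher than at D0 and 1 lower, where 2.41% of all genes were called higher and 2.12% lower. Of these, 4 higher and the 1 lower are described, after their values were seen. Tdh, threonine dehydrogenase of mouse stem cells, had 147 and 74.7 CPM at D1, against 0 and 1.497 CPM at D0 (adjusted p = 0.000968). Cdh1 had 112 and 78.3 CPM at D1, against 18.1 and 12.7 CPM at D0 (2.61, SE 0.35, adjusted p = 0.00269). Spp1, a secreted phosphoprotein, averaged 267 ± 66.6 CPM at D1 and 55.6 ± 8.11 CPM at D0 (adjusted p = 0.0119). Nr0b1, an orphan nuclear receptor, had 3.65 and 4.27 CPM at D1 and no read at D0, at least 4.32-fold higher (adjusted p = 0.0182). Klf2, a Krüppel-like factor, was lower, with 0.913 and 0.711 CPM at D1, against 11.3 and 20.2 CPM at D0 (adjusted p = 0.00272), and was higher again at D3 than at D1 by 4.35 (adjusted p = 0.0251). The count of 5 higher was 2 without D0 replicate 1, D0 replicate 2 or D1 replicate 2, 3 without D1 replicate 1, and 8 with the replicate block, which called 2 lower.

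Onset of the network was placed by the same rule for the 38 listed genes that reached 10 CPM in both series. In replicate 1, 10 were past 10% of their highest level at D0 already, 4 had their onset at D1, 11 at D3 and 13 at D5. In replicate 2 the counts were 13 at D0, 5 at D1, 3 at D3 and 17 at D5, and none was left for D7 in either series. At 25% of the highest level the counts were 5, 6, 4 and 23 for D0, D1, D3 and D5 in replicate 1, and 6, 5, 5 and 21 with 1 at D7 in replicate 2, so that fewer genes were placed at D3 in replicate 1. Cdh1 and Tdh were among those that shared the D1 onset of Sox2 in both series. The day that Pou5f1 and Nanog had in each series, D3 in replicate 1 and D5 in replicate 2, was also that of Dppa2, Epcam, Gdf3 and Lin28a. Another group, with Dppa4, Dppa5a, Fgf4, Tdgf1, Utf1 and Zfp42, had its onset at D5 in both.

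**Figure D5:**
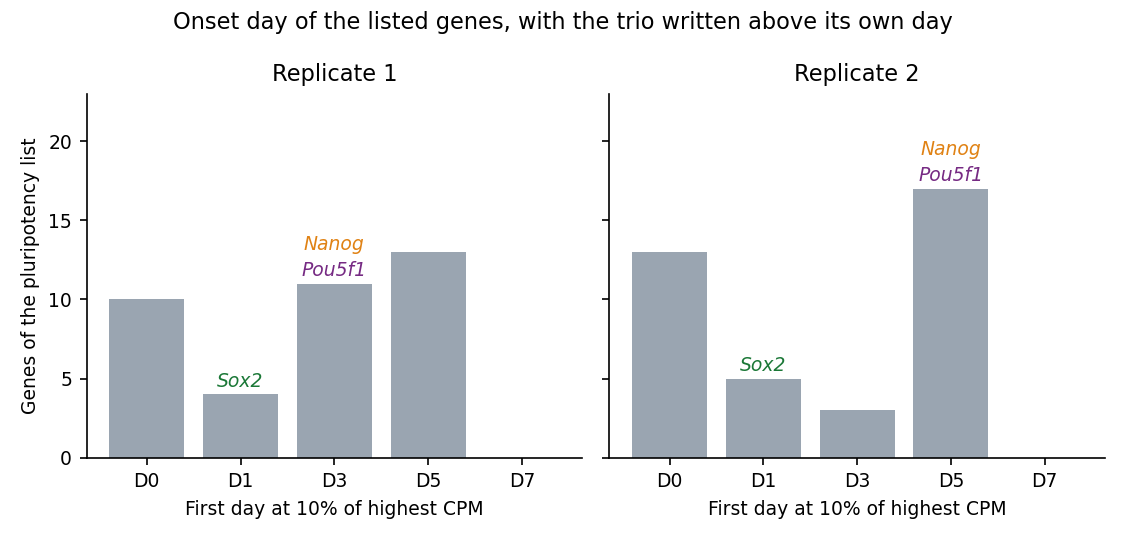
Number of the 38 listed pluripotency genes by the first day at 10% of their highest CPM, for replicate 1 (left) and replicate 2 (right), with the trio written above its own day. Sox2 stood over D1 in both, and Pou5f1 and Nanog stood over D3 with 11 genes in replicate 1 and over D5 with 17 genes in replicate 2.

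Genes known as OCT-SOX targets in embryonic stem cells were described as a list of 20, which overlaps the network list, and 19 of them were tested. At D7, 15 were called higher than at D0 and none lower (median 6.87, or 4.25 with the 6 genes silent at D0 at their bounds), where 9.15% of all genes were called higher. With the replicate block all 19 were called higher. The 6 genes silent at D0 passed the filter through later days alone, so they could not have been called lower. Fgf4, a growth factor with a known composite site in its enhancer, had 40.2 and 35.5 CPM at D7 and no read at D0, at least 44.0-fold higher (adjusted p = 0.00138). It had no read at D1 either. Nr0b1 was at least 36.5-fold higher at D7 than at D0 (adjusted p = 0.000223). At D1, 3 of the 19 were called higher than at D0, Nr0b1 and Spp1 among them, and none lower, where 2.41% of all genes were called higher. No listed target was called higher without D0 replicate 1, D0 replicate 2 or D1 replicate 2, and 1 was without D1 replicate 1.

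Of 22 genes listed as activators of the trio, 10 were called higher at D7 than at D0 and none lower (median 1.06, against 0.06 over all genes), where 9.15% of all genes were called higher and 8.71% lower. Of the 22, 3 had no read at D0 and passed the filter through later days alone, so they could not have been called lower. Tfcp2l1, a naive-state factor, averaged 5.52 above D0 (SE 0.69, adjusted p = 0.000586), with 216 and 165 CPM at D7, against 4.40 and 3.74 CPM at D0. Nr5a2, a nuclear receptor known to act on Pou5f1, and Prdm14 had no read at D0 and were at least 33.0-fold and 12.2-fold higher at D7 (adjusted p = 0.0108 and 0.0325). Both lost the call without D0 replicate 1 (adjusted p = 0.0769 and 0.157), D0 replicate 2 (0.0541 and 0.119) or D7 replicate 1 (0.0597 and 0.192). The count of 10 was 4 without D0 replicate 1 and 5 without D0 replicate 2 or D7 replicate 1. At D1, 2 were called higher, Nr0b1 among them, and 1 lower (Klf2), where 2.41% of all genes were called higher and 2.12% lower. With the replicate block 3 were higher and 2 lower.

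Of 18 listed repressors of the trio, 3 were called higher at D7 than at D0 and none lower (median 0.24), where 9.15% of all genes were called higher and 8.71% lower. The replicate block gave 4 higher and 1 lower. Dnmt3b, a de novo DNA methyltransferase that stem cells themselves express, was 5.38 above D0 (SE 0.65, adjusted p = 0.000464). Nr6a1, known as GCNF and as a repressor of Pou5f1 in differentiating mouse cells, averaged 3.48 above (SE 0.58, adjusted p = 0.00243, and 0.0868 by limma). It had 161 and 76.2 CPM at D7, against 10.8 and 10.5 CPM at D0. Cdx2, a trophoblast factor that opposes Oct4, had 5.87 and 7.88 CPM at D7, against 0 and 0.748 CPM at D0 (adjusted p = 0.0211), and lost the call without D0 replicate 1 (adjusted p = 0.152), D7 replicate 1 (0.0778) or D7 replicate 2 (0.0748). At D1 edgeR called none of the 18, where 2.41% of all genes were called higher and 2.12% lower. At an unadjusted p under 0.05 it had 1 higher and 3 lower. DESeq2 and the replicate block each called 1 in each direction and limma none.

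Relatives of the members are given by family, beside the 9.15% of all genes called higher and 8.71% called lower at D7 against D0. Of 14 other POU genes, 4 were tested and edgeR called none at D7 against D0, with 2 higher and 1 lower at an unadjusted p under 0.05, which the replicate block called. The 3 with at least 5 TPM in any library were Pou2f1 (1.37, adjusted p = 0.119), Pou3f1 (-2.38, adjusted p = 0.0645) and Pou6f1 (0.84, adjusted p = 0.422). DESeq2 called none of the POU genes and limma 1 higher. Per length, Pou5f1 reached 537 TPM and the highest other POU gene, Pou2f1, 19.1 TPM.

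Of 19 other SOX genes, 13 were tested, and 6 were called higher and 1 lower at D7 against D0. Sox15 and Sox17 had no D0 read and passed the filter through later days alone. Those higher were Sox13 (3.25, adjusted p = 0.00135), Sox15, Sox17, Sox18 (3.09, adjusted p = 0.0237), Sox3 (4.18, adjusted p = 0.0269) and Sox7 (4.70, adjusted p = 0.0295). Sox17, an endoderm and endothelial gene, had 16.1 and 17.7 CPM at D7 and no read at D0 (at least 18.6-fold higher, adjusted p = 0.00469). Sox15 had 13.1 and 7.23 CPM at D7 and no read at D0 (at least 13.1-fold higher, adjusted p = 0.00626). Sox11, of the neural and mesenchymal SoxC group, had 71.3 and 74.3 CPM at D7, against 188 and 233 CPM at D0 (-1.53, SE 0.27, adjusted p = 0.00318). Sox4, Sox5, Sox6, Sox9 and Sox12 were not called. The replicate block gave 8 higher and 2 lower, and by it Sox5 (2.38, adjusted p = 0.0334), Sox12 (1.08, adjusted p = 0.0300) and Sox4 (-0.78, adjusted p = 0.0221) were called. The count of 6 was 2 without D0 replicate 1 and 3 without D0 replicate 2 or D7 replicate 2, and 2 at a minimum count of 30. Sox3, Sox7 and Sox18 lost the call without either D0 library or without D7 replicate 2, and Sox15 without D0 replicate 1 (adjusted p = 0.0546). For D1 against D0 edgeR called none of the 13, where 2.41% of all genes were called higher and 2.12% lower. At an unadjusted p under 0.05 it had 0 higher and 2 lower. DESeq2 and limma called none, and the replicate block called 1 lower. Per length, Sox2 reached 165 TPM and the highest relative, Sox4, 56.1 TPM.

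Markers of neural progenitors are given beside Sox2. Their summed level over 12 genes was 27.0 to 43.9 TPM at D1, against 58.1 to 76.8 TPM at D0, and 27.4 to 37.0 TPM at D7. Only 2 of the 12, Nes and Tubb3, passed the filter. Neither was called at D1, where 4.52% of all genes were. The D1 over D0 log2 fold change was -1.71 for Nes (adjusted p = 0.0655, and 0.00255 with the block) and -2.30 for Tubb3 (adjusted p = 0.117). At D7 Nes was called lower than at D0 (-2.38, adjusted p = 0.00610), where 8.71% of all genes were, but not without D7 replicate 1 (-2.09). Nes, which had the highest TPM of the list in any library, had 9.66 and 23.4 TPM at D1, against 42.9 and 50.1 TPM at D0. Sox1, a SoxB1 relative of Sox2 in that lineage, had 0.180 and 0.410 TPM at D1 and 0 at D0, and Pou3f2 was at 0 at D1. Hes5 was singled out after its values were seen, was under the filter and ran against the summed level of the list. It had 11.4 and 10.7 TPM at D1, against 0.630 and 0.970 TPM at D0, and 0.880 and 0 TPM at D7.

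Markers of germ cells, which also use Pou5f1 and Nanog, summed to 119 to 252 TPM at D7, against 2.13 to 5.69 TPM at D0. Of 9 listed, 8 were tested and 6 were called higher at D7 than at D0, of which Dppa3 is also a network gene. For this and the next lists the share of all genes called was 9.15% higher and 8.71% lower, and genes silent at D0, such as Dazl and Dppa3, were tested only through later days. Dazl, with the highest TPM of the list, had 92.0 and 26.2 TPM at D7 and none from D0 to D3 (adjusted p = 0.00524, and 0.178 by DESeq2). Endothelial markers summed to 68.1 to 76.0 TPM at D7, against 5.92 to 6.10 TPM at D0, led by Pecam1, with 4 of 5 called higher. Schwann and melanocyte markers summed to 14.9 to 19.97 TPM at D7, against 5.26 to 8.71 TPM at D0 (1 of 4 tested called higher, Erbb3, which lost the call without D0 replicate 1, at an adjusted p of 0.0972, or D7 replicate 1, at 0.0805). Extraembryonic endoderm and foregut markers, led by Dab2, summed to 79.99 to 113 TPM at D7, against 47.9 to 74.3 TPM at D0. Of 6 tested, 3 were called higher (Foxa2, Gata4 and Sox17), and Dab2 itself was not called (-0.48, adjusted p = 0.467). Trophoblast markers summed to 36.0 to 40.1 TPM at D7, against 19.4 to 21.2 TPM at D0, with 2 of 5 tested called higher, 1 lower and Tpbpa at 0. Tfap2c alone made up 24.96 and 19.6 TPM of the D7 sums in replicates 1 and 2, and it is also on the germ cell list. The other gene called higher was Cdx2, whose call depended on single libraries, as given above. Macrophage markers summed to 10.9 to 18.7 TPM at D7, against 15.1 to 24.3 TPM at D0, with neither of 2 tested called. Lyz2 had the highest TPM of that list in any library, and Cd68 the highest at D7. Apart from Tpbpa, no gene of these 6 lists was at 0 in both D7 libraries. The part of such cells in the levels of the trio was not tested.

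Of the 4 delivered factors, edgeR called 3 lower at D7 than at D0, where 8.71% of all genes were. These calls depended on single libraries. Reads of the viral copies cannot be told apart from those of the native genes. Sall4 averaged 1.66 lower at D7 than at D0 on the log2 scale (-1.66, SE 0.36, adjusted p = 0.00959), Esrrb -1.53 (SE 0.35, adjusted p = 0.0119) and Jdp2 -1.56 (SE 0.48, adjusted p = 0.0442), while Glis1 was not called (-1.32, adjusted p = 0.261). With the replicate block all 4 were lower. None of the 3 was called without D0 replicate 2 (adjusted p = 0.0764, 0.0799 and 0.0709), D7 replicate 1 (0.0812, 0.0882 and 0.0682) or D7 replicate 2 (0.0646, 0.0790 and 0.249), and Jdp2 also lost it without D0 replicate 1 (0.257) or without either D3 library (0.0588 and 0.0510). At D1 none was called against D0 in either direction by edgeR, DESeq2 or limma, with 0 at an unadjusted p under 0.05. In that comparison edgeR called 4.52% of all genes. Esrrb was at 607 and 576 CPM at D7, against 1579 and 1836 CPM at D0.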

How the data were processed

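The submitters' processing notes name bcl2fastq, Bowtie2, RSEM and mm10. Tool versions, annotation and use of strand were not given in the sources used here. Deposited expected counts, per the file headers, are RSEM's estimated counts per gene, not normalized, and the deposited TPM values are its length-adjusted abundances. The transcript lengths (in bases) that RSEM assigned are also deposited per the file headers. Expected counts were rounded and tested with edgeR 4.0.16 (limma 3.58.1, R 4.3.3) after edgeR's filter at a minimum count of 10 and TMM scaling, in a single fit of 10 libraries with a term per day. An SE is the absolute log2 fold change divided by the square root of F. Names matched 54723 of 54752 identifiers. The 29 without a name held 0.000602% to 0.00179% of a library. Floors (3 reads) and intervals (95%) cover counting error only, because without molecular identifiers reads do not stand for independent molecules.

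Replicates of a day differed beyond counting noise (chi-square per gene 7.75 to 23.0). Nothing says that replicates came from separate animals, so the p-values go by the spread among libraries, which may be technical. The replicate number of the labels was checked as a pairing. Deviations from the day means correlated between libraries of the same number at 0.273 to 0.436 over 10 pairs of days, so the block was taken as an alternative. Its values are given where they change a call of a member, and in most cases for families and gene lists. Beyond those, for D7 over D0 the block called 36 network genes and 12 activators higher. For D1 over D0 it called 4 OCT-SOX targets higher and 1 POU gene lower.

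The members and all lists were chosen with earlier results of these data known. Named genes were the members, up to 4 genes called higher and 2 lower per list with the largest D7 over D0 change, the delivered factors, POU and SOX genes of at least 5 TPM, the 5 genes most like each member, protein-coding neighbours within 100 kb, and the top marker of each list. Floors over a day pool its libraries, which weights replicate 1. Alternatives were other scalings, filters and tools (DESeq2 1.42.0), the block, each library left out, the days compared alone, and other pseudocounts and cut-offs. The values of 1 listed gene are not reported here.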

Additional observations from a re-analysis of the deposited data

How the results depend on the processing

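Each call of Sox2 and Pou5f1 given above, and those of Nanog for D5 over D0, D7 over D0 and D7 over D1, held under each of the 18 alternatives run. With the replicate block, Sox2 was also called for D5 over D1 (1.19) and D7 over D1 (1.13), Pou5f1 for D3 over D1 (4.03), D5 over D3 (2.37) and D7 over D3 (2.13), and Nanog for D5 over D3 (2.42) and D7 over D3 (2.81). The block changed no other call of a member.

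Without the filter on low counts edgeR also called Sox2 for D5 over D1 (1.12) and D7 over D1 (1.14), Pou5f1 for D3 over D1 (4.05), D5 over D3 (2.18) and D7 over D3 (1.97), and Nanog for D1 over D0 (3.32), D3 over D1 (2.37), D5 over D3 (2.28) and D7 over D3 (2.55). DESeq2 called Sox2 for D5 over D1 (1.18) and D7 over D1 (1.17), and upper-quartile scaling called it for D7 over D1 (1.26). Fitting only the days compared called Sox2 for D7 over D1 (1.15) and Nanog for D7 over D3 (2.50), and ended the Nanog call for D5 over D1 (4.74). The cause of these changes was not tested. For D7 over D5, which was never called, Sox2 turned positive without a filter (0.018) and by limma (0.14).

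With libraries left out in turn, log2 fold changes ran as follows. Sox2 gave 0.83 to 1.38 for D7 over D1 and -0.35 to 0.21 for D7 over D5, with 0.15 without D5 replicate 1. Pou5f1 gave -0.12 to 6.68 for D1 over D0. Nanog gave 4.05 to 9.43 for D3 over D0, 3.84 to 7.76 for D5 over D1, 1.86 to 4.20 for D7 over D3 and -0.28 to 1.05 for D7 over D5, with -0.06 without D7 replicate 1. The Sox2 over Pou5f1 ratio difference ran from -4.30 to -2.73 and the Sox2 over Nanog one from -3.50 to -2.35. The exact permutation test of these pooled days restates the courses, and no conclusion is drawn from it. Its unadjusted p of 0.0286 is the smallest that 70 arrangements allow, so it was fixed once the groups did not overlap. The adjusted p was 0.0429 for each ratio and 0.0857 without any 1 of the D5 or D7 libraries. Within the replicate block it was 0.0833, and the differences were again -3.53 and -2.99.

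Onset at 50% of the highest level moved Sox2 to day 3 in both series and Pou5f1 and Nanog to day 5 in replicate 1. At 25% Nanog moved to day 5 in replicate 1, and at 5% Pou5f1 and Nanog moved to day 3 in replicate 2.

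Counts of genes called with a library left out ran from 120 to 908 for D1 over D0 (main 577), 589 to 2125 for D3 over D0 (1549), 845 to 2204 for D5 over D0 (2079), 841 to 2959 for D7 over D0 (2278), 0 to 44 for D3 over D1 (7), 45 to 889 for D5 over D1 (560), 249 to 2254 for D7 over D1 (1466), 0 to 295 for D5 over D3 (9), 4 to 1557 for D7 over D3 (685) and 0 to 232 for D7 over D5 (0). With the replicate block the counts were 1350, 2742, 3342, 3629, 206, 1743, 3070, 421, 2351 and 20 in the same order. Without a filter they were 1064 for D1 over D0, 272 for D3 over D1, 1324 for D5 over D1, 2245 for D7 over D1, 452 for D5 over D3, 1664 for D7 over D3 and 176 for D7 over D5. DESeq2 called 126 for D3 over D1, 151 for D5 over D3 and 25 for D7 over D5, and limma called 362 for D5 over D1, 17 for D5 over D3, 435 for D7 over D3 and 1 for D7 over D5. For D3 over D1, upper-quartile scaling called 15, a minimum count of 30 called 11 and the days alone 12, and the days alone gave 97 for D5 over D1 and 1309 for D7 over D3.

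Upper-quartile scaling moved the median log2 fold change of all genes for D7 over D0 to 0.19, against 0.06 with TMM. Besides the members, 45 of 61 named genes tested were called for D7 over D0, and 25 of them stayed called without every library in turn and 23 under all alternatives. None of the 45 changed direction. Of those not called, Cchcr1 turned positive at 0.0035 with RLE, 0.11 with upper-quartile scaling, 0.025 without a filter, 0.028 at a minimum count of 30 and 0.019 with the days alone, and lay at -0.19 to 0.12 over all alternatives. Pou6f1 turned to -0.69 by limma, and Sox6 to -0.060 with the replicate block, with -0.94 to 0.73 as libraries were left out. Depth limits D0 and D1, where Pou5f1 and Nanog had 0 to 33 reads per library.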

Other observations

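Few genes were called in the steps in which Pou5f1 and Nanog climbed, and they are named here after their values were seen. EdgeR called no gene for D3 over D1 without D1 replicate 2 or D3 replicate 1, with 615 and 746 genes at an unadjusted p under 0.05. It called none for D5 over D3 without D3 replicate 1, D3 replicate 2 or D5 replicate 1, with 1661, 722 and 1573 genes at an unadjusted p under 0.05. With all libraries DESeq2 called 126 and 151 genes in these steps and the replicate block 206 and 421. The 7 called higher at D3 than at D1 were Klf2 (log2 fold change 4.35, adjusted p = 0.0251), Crybb1 (5.34, adjusted p = 0.0286), Selenop, a selenium carrier (3.91, adjusted p = 0.0116), Socs2, a brake on cytokine signalling (2.39, adjusted p = 0.0286), Sprr2a2 (4.50, adjusted p = 0.0116), Trh (5.11, adjusted p = 0.0323) and Trpm1 (3.84, adjusted p = 0.0251). The near-identical Sprr2a genes share reads, so the value of Sprr2a2 is uncertain.

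Of 9 genes called at D5 against D3, 8 were higher. They were the pluripotency genes Dppa5a (6.08, adjusted p = 0.0178), Dppa4 (4.85, adjusted p = 0.0370) and Utf1 (4.26, adjusted p = 0.0370), along with Alpl, alkaline phosphatase (3.15, adjusted p = 0.0213), Arid3b (3.63, adjusted p = 0.0213), Rbmxl2 (5.82, adjusted p = 0.0173), Slc16a3, a lactate transporter (3.20, adjusted p = 0.0178), and Trap1a (6.66, adjusted p = 0.0444). Ryr1 was lower (-2.05, adjusted p = 0.0370). Utf1 had 98.6 and 75.0 CPM at D5, against 5.85 and 2.24 CPM at D3, and Dppa5a had 264 and 129 CPM at D5, against 4.39 and 0 CPM at D3. Dppa4, without a D0 read, and Dppa5a passed the filter through later days, so they could hardly have been called lower. The adjusted p-values are edgeR's.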
